A study of Mus musculus with 6 samples.

Results

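The genes described here are 36 members of the DNA replication and S-phase machinery, selected by symbol from the 23441 genes of a read count table of the embryonic mouse retina. All 36 symbols were found, every member had reads in every library, and all 36 passed the filter on low counts that left 14609 genes to be tested. The CKO group held 3 libraries of retinae at embryonic day 14.5 from mice of genotype Chx10-Cre::GFP +/tg with Ronin flox/flox, in which both alleles of Ronin, the gene Thap11, are floxed and a transgene supplies Cre fused to GFP. The control group held 3 libraries of Ronin flox/flox retinae of the same day, without the transgene. Loss of Ronin and presence of the transgene therefore cannot be told apart in these libraries. The background was mixed in all mice, from the strains FVB and 129/Sv together with SJL/B6 and also C57/B6. The Chx10 promoter is active in retinal progenitors, and the submitters describe the knockout as specific to those cells, so cells outside that domain keep intact floxed alleles. The labels do not state whether libraries came from separate or pooled animals, and p-values here reflect only how much these libraries vary, part of which may be technical.

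Ronin is a THAP-domain zinc finger protein that binds promoters together with the cofactor HCF-1. DNA replication begins when Cdc6 and Cdt1 load the MCM2-7 ring onto origins in G1. Cyclin E with Cdk2 and other kinases then turn the ring into an active helicase with the GINS complex, primase and DNA polymerase alpha start each strand with a short RNA-DNA primer, and polymerases held by the PCNA clamp extend it. Most of these genes are transcribed in late G1 under E2F factors, and in the embryonic retina they mark the dividing progenitors that give rise to neurons in a fixed order.

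Libraries held 23721052 to 28504391 counted reads, and levels are given as CPM, counts per 1000000 reads of the scaled library. Thap11 itself had 11.2, 10.9 and 6.38 CPM in the CKO libraries and 68.3, 82.0 and 71.6 CPM in the controls, so that 12.9% of its control level remained (log2 fold change -2.96 ± 0.24, adjusted p = 0.00425 with edgeR). The summed level of 12 retinal progenitor markers was 8739 to 9330 CPM in the CKO libraries and 9069 to 9672 CPM in the controls, and that of 12 markers of postmitotic retinal neurons 4370 to 4466 CPM in the CKO libraries and 4087 to 4321 CPM in the controls, with no marker of any list called by edgeR. The neuron sums of all CKO libraries thus lay above those of all controls, although none of the 12 passed an unadjusted p under 0.05 in the edgeR fit. Taken singly, 2 of the 12 neuron markers did not overlap between the genotypes (16.7%, beside 12.6% of all genes tested). Lens markers, 12 of 12 detected, summed to 62.95 to 9420 CPM in the CKO libraries and 11.73 to 18.49 CPM in the controls. All 12 were higher in CKO at an unadjusted p under 0.05 in the edgeR fit, and DESeq2's Wald test called 11 of them higher. Summed blood vessel markers (240.8 to 260.1 CPM in CKO, 271.4 to 327.1 CPM in control) did not overlap between the genotypes, and DESeq2 called 1 of 6 lower, whereas pigment epithelium, periocular mesenchyme, erythroid and microglia markers overlapped between the genotypes. Control replicate 2 stood apart from the other controls in many genes. In bulk tissue fewer cells of a type and less RNA per cell cannot be told apart.

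Of the 36 members, 1 was lower and 0 were higher in the CKO retina at an adjusted p under 0.05 (edgeR quasi-likelihood test, Benjamini-Hochberg over all genes tested). The member that fell was Prim1. Among all genes tested, 0.705% were called lower, 0.192% higher and 0.897% in either direction, against 2.78% of the members. At an unadjusted p under 0.05 there were 2 members, Prim1 and Cdc6, a share of 5.56% beside 6.58% of all genes; by direction these were 1 lower, beside 4.36% of all genes, and 1 higher, beside 2.22%. Limma-voom, which called 0.821% of all genes, and DESeq2's Wald test, which called 1.46% lower and 0.817% higher, each called Prim1 as the only member. The CKO and control libraries did not overlap in 5 of the 36 members (13.9%, beside 12.6% of all genes tested), with Mcm3, Mcm6 and Prim1 below the controls, as were 6.91% of all genes, and Cdc6 and Pola2 above them, as were 5.74%. The log2 fold change was below 0 in 24 of the 36 members (66.7%, beside 55% of all genes), with a median of -0.06 in the members and -0.03 in all genes. In 86.1% of members the log2 fold change lay within 0.2 of no difference, compared with 59.2% of all genes. The share was 72.5% in the 102 further replication genes described below. These sets differ in level, since the lowest mean was 18.8 CPM among members and 0.257 CPM among all genes. Whether the higher share in the members went beyond their level was not tested.

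**Figure D1:**
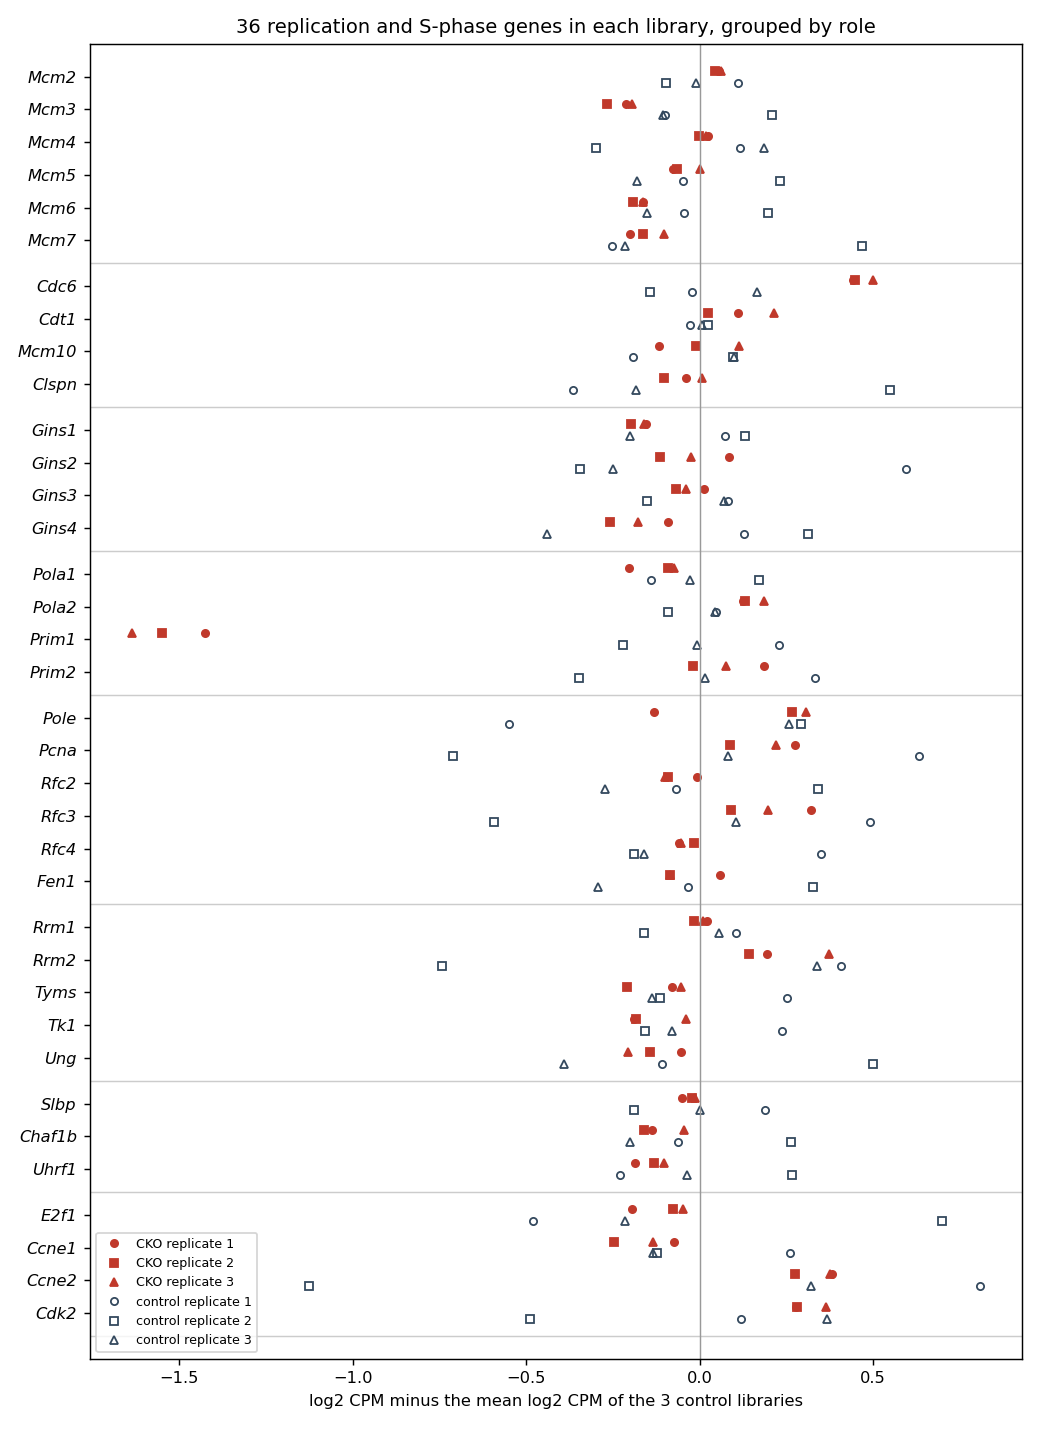
Each row is a member, grouped by role from the MCM helicase at the top to G1/S control at the bottom, and the x axis is log2 CPM in each library minus the mean log2 CPM of the 3 controls. Filled red symbols (CKO) cluster near 0 in nearly every row, open symbols (control) spread more widely, and only in Prim1 do all 3 CKO libraries sit more than 1 unit below the controls.

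The fall was in primase. DNA polymerase alpha-primase has 4 subunits, of which Prim1 is the catalytic subunit that makes the RNA primer, Prim2 the large primase subunit that binds an iron-sulfur cluster, Pola1 the DNA polymerase and Pola2 its regulatory subunit. Prim1 stood at 34.4, 31.6 and 29.8 CPM in CKO replicates 1 to 3 and at 109, 79.4 and 92.0 CPM in control replicates 1 to 3. Every CKO library lay below every control by a wide margin. These levels rest on 994, 846 and 728 reads in the CKO libraries and on 2764, 1821 and 2416 reads in the controls. The mean was 31.9 ± 2.34 CPM in CKO and 93.3 ± 14.6 CPM in control (SD, n = 3 per group), so that 34.2% of the control level remained, which on the log2 scale is a fold change of -1.55 ± 0.16 (SE) with a 95% interval of -1.92 to -1.18. The adjusted p in the edgeR fit was 0.00722. By p-value it ranked 28 among the 14609 genes. The call was lost when replicate 3 of the CKO group was left out (log2 fold change -1.50, edgeR adjusted p = 0.0671) and when replicate 3 of the controls was (log2 fold change -1.53, edgeR adjusted p = 0.0637).

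The other 3 subunits of the complex did not pass the test. Prim2 stood at 57.1, 49.5 and 52.9 CPM in the CKO libraries and at 63.3, 39.5 and 50.7 CPM in the controls, where the groups overlapped. Pola1 had 101, 109 and 110 CPM in the CKO libraries and 105, 130 and 114 CPM in the controls, also with overlap. Pola2 had 78.7, 79.0 and 82.0 CPM in the CKO libraries and 74.5, 67.7 and 74.4 CPM in the controls, so that its CKO libraries lay slightly above all controls. The log2 fold changes were 0.06 for Prim2 (95% interval -0.38 to 0.49), -0.13 for Pola1 (-0.44 to 0.18) and 0.15 for Pola2 (-0.13 to 0.42), with edgeR adjusted p values of 0.976, 0.940 and 0.940.

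Prim1 was also compared with its partners inside each library, which does not depend on how libraries are scaled. The log2 CPM of Prim1 minus the mean log2 CPM of Prim2, Pola1 and Pola2 was -1.16, -1.25 and -1.39 in CKO replicates 1 to 3 and 0.46, 0.17 and 0.29 in control replicates 1 to 3. The difference between the genotypes was -1.57, from means of -1.26 ± 0.12 in CKO and 0.31 ± 0.14 in control (SD, n = 3 per group). The two-sided exact permutation test gave p = 0.1, the smallest p that 3 libraries against 3 allow, so this test could not pass 0.05. Per length, in CPM per kilobase of exon, Prim1 had 20.1 ± 1.47 in CKO and 58.7 ± 9.18 in control. Among the partners the level per kilobase was 19.9 ± 0.944 in CKO and 21.8 ± 2.41 in control for Pola1, 26.9 ± 1.93 in CKO and 25.9 ± 6.02 in control for Prim2, and 27.9 ± 0.649 in CKO and 25.2 ± 1.37 in control for Pola2. On this scale Prim1 was the most abundant of the 4 subunits in the controls, while its CKO mean lay within the range of the other 3. Exon lengths came from a later annotation than the one behind the counts, so ratios between genes are approximate.

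**Figure D2:**
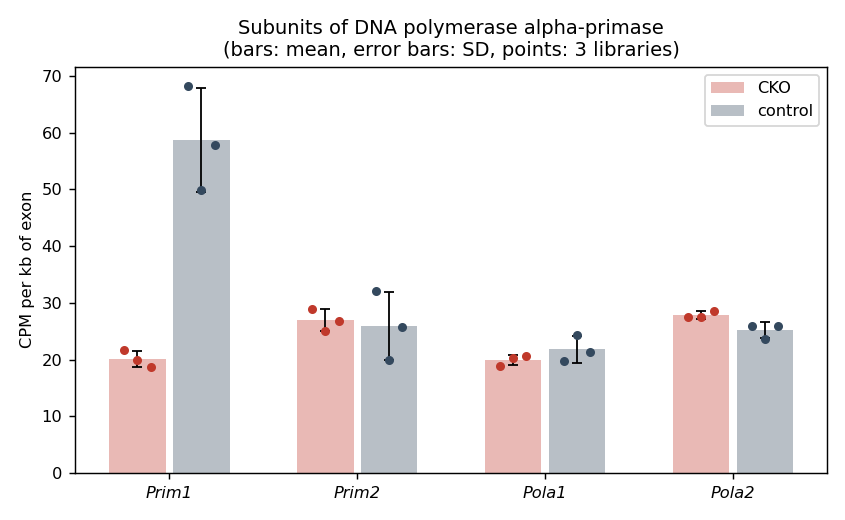
Bars give the mean level per kilobase of exon (y axis, CPM per kb) of the 4 subunits of DNA polymerase alpha-primase, CKO left of control, with error bars for the SD and points for the 3 libraries of each group. Prim1 stands at 20.1 in CKO and 58.7 in control, and the bars of Prim2, Pola1 and Pola2 lie between 19.9 and 27.9 in both genotypes.

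Sequences upstream of the members were examined because Prim1 differed from the other subunits of its complex. The RefSeq promoter table (GRCm38.p6, from 250 bases before to 50 after each start) had windows for 28 of the 36 members. The core of the element shared by THAP11 and ZNF143, a zinc finger factor that binds many of the same promoters, was searched on both strands; it is 12 bases long and leaves 2 inner bases free, as the matches printed here in capitals show. It occurred in the windows of 2 members, Prim1 and Fen1, which is 7.14% of the 28, and in 4.42% of the windows of all genes tested. The Prim1 upstream stretch is shown because it belongs to the member that fell. It spans chr10:128015018-128015167 on the plus strand (GRCm38.p6), 150 bases that end just before the first transcribed base in GENCODE, with the element in capitals beginning 36 bases before that point.
Prim1: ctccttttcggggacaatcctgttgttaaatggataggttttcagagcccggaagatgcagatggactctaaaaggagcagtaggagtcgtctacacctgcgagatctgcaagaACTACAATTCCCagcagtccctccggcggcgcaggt

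Among 102 further replication genes, 85 had a window and 3 of these, Rnaseh2a, Rad18 and Lig1, held the element (3.53%). The 30 bases around each match are given along the strand on which the element reads forward, with the element in capitals, so that the genes that share it can be compared. Fen1 had another match farther upstream, on the opposite strand.
Prim1, chr10:128015123-128015152, plus strand: tctgcaagaACTACAATTCCCagcagtccc
Rnaseh2a, chr8:84966168-84966197, minus strand: tcctcaaagACTACAATTCCCaggagagaa
Rad18, chr6:112696707-112696736, minus strand: cgcacaagaACTACAGCTCCCagcatgccg
Lig1, chr7:13278748-13278777, plus strand: gctctagagACTACAACTCCCagcagcctc
Fen1, chr19:10203956-10203985, minus strand: ggggcatacACTACATTTCCCaggaggctg

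The genes with the element did not all differ between the genotypes. Rnaseh2a, the catalytic subunit of the enzyme that removes RNA from RNA-DNA hybrids, had 21.4, 20.8 and 21.9 CPM in the CKO libraries and 31.2, 57.0 and 25.7 CPM in the controls. Its groups did not overlap, but control replicate 2 was far above the other controls and the log2 fold change of -0.83 ± 0.29 missed the threshold (edgeR adjusted p = 0.542). Rad18, a ubiquitin ligase that marks the PCNA clamp at damaged templates, had 20.4, 18.3 and 17.7 CPM in the CKO libraries and 40.6, 24.6 and 34.0 CPM in the controls. Again all CKO libraries lay below all controls, at -0.81 ± 0.20 for the log2 fold change (adjusted p = 0.225 with edgeR), and the gene passed without control replicate 2 (adjusted p = 0.0176) and with DESeq2's Wald test (adjusted p = 0.0267). Lig1, the ligase that joins Okazaki fragments, had 307, 334 and 351 CPM in the CKO libraries and 255, 654 and 290 CPM in the controls, and the groups overlapped. Fen1, the nuclease that trims the flaps of Okazaki fragments, had 106, 95.8 and 95.8 CPM in the CKO libraries and 99.3, 127 and 82.9 CPM in the controls, with a log2 fold change of -0.06 (95% interval -0.46 to 0.35). The letters say only that the element is present in these windows, and binding was not measured.

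**Figure D3:**
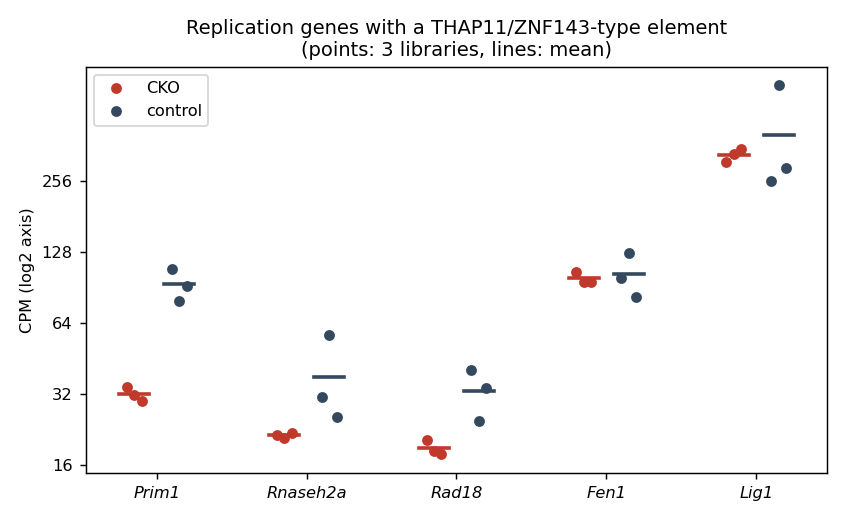
The y axis is CPM on a log2 axis for the 5 replication genes whose promoter window holds the element, with CKO points left of control points and lines at the means of 3 libraries. All CKO libraries lie below all controls in Prim1, Rnaseh2a and Rad18, as in 6.91% of all genes tested, and the groups overlap in Fen1 and Lig1.

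The gene next to Prim1 on the same strand is Naca, which encodes a ribosome-associated chaperone subunit. It had 54.9, 48.4 and 49.4 CPM in the CKO libraries and 74.1, 64.3 and 45.0 CPM in the controls, and the groups overlapped (log2 fold change -0.26 ± 0.20, edgeR adjusted p = 0.940). On the other side lies Hsd17b6, a steroid dehydrogenase gene on the opposite strand, with 0 reads in all CKO libraries and at most 1 read in a control.

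The helicase ring was close to level between the genotypes. None of Mcm2 to Mcm7, which form the ring that unwinds DNA, passed the test, and their log2 fold changes ran from -0.23 to 0.05. Mcm3 had 242, 233 and 245 CPM in the CKO libraries and 262, 324 and 261 CPM in the controls, which gave -0.23 ± 0.14 for the log2 fold change (adjusted p = 0.910 with edgeR). All CKO libraries of Mcm3 were below all controls, yet the gap to control replicates 1 and 3 was small beside the excess of control replicate 2. Mcm7 had 118, 121 and 126 CPM in the CKO libraries and 114, 187 and 116 CPM in the controls, where replicate 2 again held the high value and the other controls lay below the CKO libraries. Mcm6, whose CKO libraries also lay below all controls, averaged 357 ± 3.96 CPM in CKO and 405 ± 51.4 CPM in control (SD, n = 3 per group), and Mcm2 averaged 280 ± 1.80 CPM in CKO and 270 ± 19.7 CPM in control. Per length, the 6 ring genes ran from 41.0 (Mcm7) to 83.1 (Mcm2) CPM per kilobase in CKO and from 46.9 (Mcm7) to 93.2 (Mcm3) CPM per kilobase in control.

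Gins1 to Gins4 encode the complex that joins the MCM ring and Cdc45 to form the moving helicase. None passed, with log2 fold changes between -0.21 and -0.04. Gins4, at the lower end, had 50.2, 44.7 and 47.3 CPM in the CKO libraries and 58.5, 66.4 and 39.4 CPM in the controls, so that the CKO values fell inside the control range. Gins1 had 35.6, 34.6 and 35.5 CPM in the CKO libraries and 41.7, 43.4 and 34.5 CPM in the controls, so that the log2 fold change was -0.18 ± 0.14 (adjusted p = 0.940 with edgeR). The mean log2 CPM of Mcm2 to Mcm7 minus that of Gins1 to Gins4 was 2.74 ± 0.06 in CKO and 2.73 ± 0.22 in control (SD, n = 3 per group), a difference of 0.00980 (two-sided exact permutation p = 1).

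Among the licensing and firing genes, Cdc6 had the largest positive log2 fold change of all 36 members. Cdc6, the ATPase that brings the MCM ring to origins, had 39.2, 39.4 and 40.8 CPM in the CKO libraries and 28.4, 26.1 and 32.4 CPM in the controls. The groups did not overlap, and the log2 fold change was 0.46 ± 0.14 (95% interval 0.14 to 0.78, unadjusted p = 0.0113 in the edgeR fit), but after adjustment over all genes it missed the threshold (adjusted p = 0.405, and 0.102 at the lowest among 14 alternatives). Cdt1, its partner in loading, had 85.4, 80.3 and 91.7 CPM in the CKO libraries and 77.5, 80.4 and 79.3 CPM in the controls, with an overlap at the lowest CKO value. Mcm10, which helps to activate the helicase, and Clspn, which encodes the fork protein claspin, had log2 fold changes of -0.01 and -0.10.

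No difference was called at the elongating fork. The log2 fold changes of Pole, Pcna, Rfc2, Rfc3, Rfc4 and Fen1 ran from -0.09 to 0.14. Rfc3, a subunit of the clamp loader, had 81.0, 69.1 and 74.4 CPM in the CKO libraries and 91.2, 43.0 and 69.8 CPM in the controls. Pole, the catalytic subunit of the leading-strand polymerase, had 94.96, 125 and 129 CPM in the CKO libraries and 71.1, 128 and 124 CPM in the controls. In both genes the controls covered a wider range than the CKO libraries. Pcna, the sliding clamp, had the highest level per length of all members in both genotypes, with 118 ± 7.71 CPM per kilobase in CKO and 110 ± 48.1 CPM per kilobase in control (SD, n = 3 per group), and its control spread came from 241 CPM in replicate 1 and 95.1 CPM in replicate 2.

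Genes of nucleotide supply were likewise uncalled. Ribonucleotide reductase makes deoxynucleotides from ribonucleotides, and its small subunit gene Rrm2 had 166, 160 and 188 CPM in the CKO libraries and 193, 86.9 and 184 CPM in the controls. Ung, the glycosylase that removes uracil from DNA, had 63.8, 60.0 and 57.4 CPM in the CKO libraries and 61.4, 93.7 and 50.6 CPM in the controls. Control replicate 2 was the lowest library for Rrm2 and the highest for Ung. The log2 fold changes were 0.15 ± 0.28 for Rrm2 and -0.18 ± 0.23 for Ung (SE, edgeR adjusted p = 0.958 and 0.946), while Rrm1, the large reductase subunit, was at 0.000908. The salvage kinase gene Tk1 and the thymidylate synthase gene Tyms were at -0.15 and -0.12. Tyms has a processed copy listed apart, Tyms-ps, with 449 to 571 reads in the CKO libraries and 455 to 704 reads in the controls, so its reads may be divided between the copies.

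The 3 genes of histone supply and chromatin copying had log2 fold changes between -0.15 and -0.04, with none called. Uhrf1, which brings the maintenance DNA methyltransferase to new DNA, had 250, 259 and 265 CPM in the CKO libraries and 242, 342 and 277 CPM in the controls. Chaf1b, a subunit of the histone chaperone CAF-1, had 50.1, 49.3 and 53.4 CPM in the CKO libraries and 52.8, 66.2 and 48.0 CPM in the controls. Both had their highest value in control replicate 2. Slbp, which binds the stem-loop of histone messengers, was at a log2 fold change of -0.04.

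Genes of the G1/S switch overlapped between the genotypes. E2f1, a transcription factor that turns on S-phase genes, had 114, 124 and 126 CPM in the CKO libraries and 93.6, 212 and 112 CPM in the controls. Cdk2, the kinase partner of cyclin E, had 87.7, 87.8 and 93.0 CPM in the CKO libraries and 78.6, 51.6 and 93.3 CPM in the controls. The log2 fold changes were -0.20 ± 0.29 for E2f1 and 0.26 ± 0.21 for Cdk2 (SE, edgeR adjusted p = 0.954 and 0.940). The E2f1 value was 0.25 without control replicate 2, the opposite sign. The cyclin E genes Ccne1 and Ccne2 were at -0.16 and 0.14, and Ccne2 had the widest 95% interval of the members, from -0.81 to 1.09.

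Sites for E2F factors, searched as TTTGGCGC and TTTCCCGC on both strands, were found in 10 of the 28 member windows (35.7%), beside 3.33% of the windows of all genes tested. The Prim1 window held neither, which was so in 18 of the 28 member windows, Prim1 included. The 10 members were Cdc6, Cdk2, Cdt1, Gins3, Mcm3, Mcm5, Mcm6, Mcm7, Pola1 and Rfc3, with log2 fold changes from -0.23 to 0.46. EdgeR called 0 of them, beside 0.897% of all genes tested, so the lack of a call does not set these 10 apart. The CCAAT box was found in 60.7% of the member windows and in 42.7% of those of all genes tested, and Prim1 had a copy. A few E2F-type matches are shown for comparison with Prim1, 30 bases each on GRCm38.p6 with the match in capitals.
Mcm5, chr8:75109349-75109378, minus strand: aggctggacgtTTTGGCGCgaaagttcttg
Mcm6, chr1:128359797-128359826, minus strand: tggcgtatgctTTTGGCGCgaaaagtgcgt
Pola1, chrX:93632275-93632304, plus strand: gcgggagtgcaTTTGGCGCcctgtgatgac
Cdc6, chr11:98908002-98908031, minus strand: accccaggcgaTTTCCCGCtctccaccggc

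The 35 members other than Prim1 could be bounded as well as tested. In all 35 the 95% interval of the log2 fold change excluded a 2-fold fall, and in 34 it also excluded a 2-fold rise, with Ccne2 as the exception. The intervals of all 35 excluded the log2 fold change of Prim1. These intervals are per gene, without correction for the number of genes. The median SE of the 35 was 0.16.

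The wider replication machinery was described with 102 further genes in 10 lists. None was called higher or lower by edgeR at an adjusted p under 0.05, 3 were lower and 4 higher at an unadjusted p under 0.05 (6.86%, beside 6.58% of all genes tested), and their median log2 fold change was 0.01. DESeq2's Wald test called 2 lower, Rnaseh2c and Rad18, and 4 higher, Polk, Dctd, Shmt1 and Cdkn1a, an inhibitor of cyclin-dependent kinases. That tool called 1.46% of all genes lower, 0.817% higher and 2.28% in either direction. Polk, a translesion polymerase, had 24.96, 31.9 and 31.2 CPM in the CKO libraries and 12.8, 7.07 and 15.5 CPM in the controls, with no overlap and 1.31 ± 0.28 as log2 fold change (adjusted p = 0.134 with edgeR, DESeq2 adjusted p = 0.000816). Rnaseh2c, a non-catalytic subunit of RNase H2, had 21.9, 17.7 and 18.1 CPM in the CKO libraries and 46.2, 65.7 and 31.2 CPM in the controls, with no overlap and -1.31 ± 0.27 as log2 fold change (adjusted p = 0.106 with edgeR, DESeq2 adjusted p = 0.000551). Dctd, a deaminase that supplies the precursor of thymidylate, had 20.3, 22.6 and 22.2 CPM in the CKO libraries and 14.1, 7.59 and 13.2 CPM in the controls (log2 fold change 0.90 ± 0.24, edgeR adjusted p = 0.276, DESeq2 adjusted p = 0.0255). In these 3 genes, picked for the size of their change, every CKO library lay on the same side of every control. The groups did not overlap in 14 of the 102 genes (13.7%), beside 12.6% of all genes tested. The edgeR call of Polk and Rnaseh2c depended on the fit. Polk and Rnaseh2c passed with the replicate number as a block (adjusted p = 0.0479 and 0.0416), and Polk passed without control replicate 2 (0.0338). Shmt1, which makes the folate cofactor used in thymidylate synthesis, also passed without control replicate 2 (log2 fold change 0.69, adjusted p = 0.0388 with edgeR), as did Rad18.

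By list, the median log2 fold change was 0.04 in 9 genes of origin recognition and licensing, -0.02 in 11 of origin firing, -0.10 in 7 subunits of polymerases delta and epsilon, and -0.07 in 11 genes of clamp loading and Okazaki fragment joining. It was -0.11 in 5 genes of single-strand binding and topoisomerases, 0.03 in 11 of nucleotide metabolism and -0.08 in 6 of chromatin assembly. The median was 0.02 in 19 E2F factors and S-phase entry regulators, 0.12 in 14 checkpoint genes and 0.01 in 9 other polymerases. Primpol, the other primase of mammalian cells, had 10.05 ± 0.742 CPM in CKO and 10.4 ± 1.28 CPM in control (SD, n = 3 per group).

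**Figure D4:**
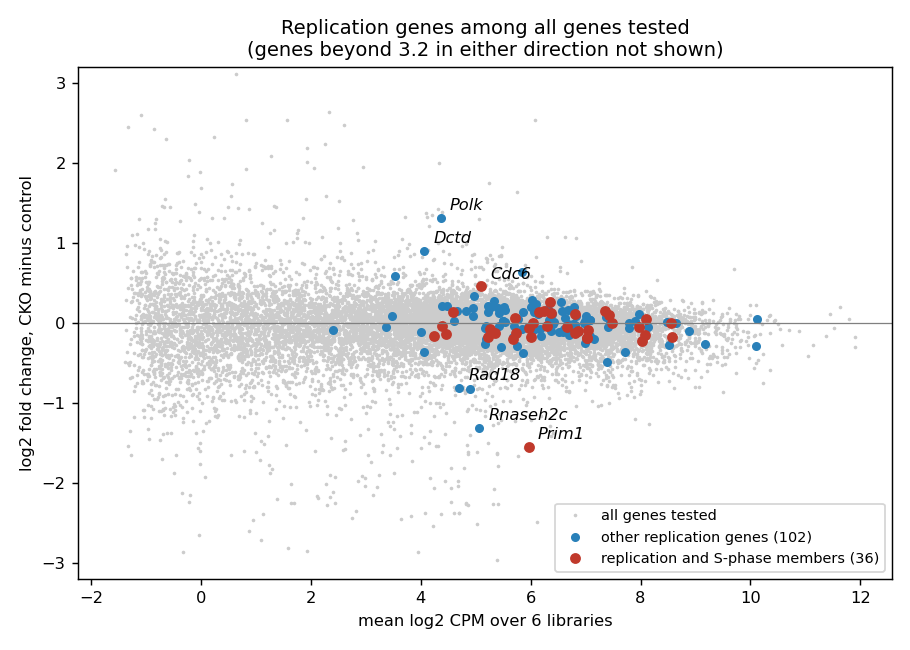
Each point is a gene, with mean log2 CPM over 6 libraries on the x axis and the log2 fold change, CKO minus control, on the y axis. The 36 members (red) and 102 further replication genes (blue) form a band around 0 inside the grey cloud of all genes tested, with Prim1 at -1.55, Rnaseh2c at -1.31 and Polk at 1.31 among those farthest from 0.

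The members varied more among the controls than among the CKO libraries. The median SD of log2 CPM per member was 0.06 among the CKO libraries and 0.24 among the controls, or 0.16 among the controls without replicate 2. For all genes tested the same medians were 0.10, 0.33 and 0.19. Control replicate 2 held the highest or the lowest of the 6 values in 29 of 36 members (80.6%), compared with 68.9% of all genes. It was highest in 14 members and lowest in 15, so that it moved members apart rather than together. The split was also near even over all genes tested, where control replicate 2 was highest in 5100 and lowest in 4969. Its ratio to the mean of control replicates 1 and 3 ran from 0.305 in Ccne2 to 2.06 in E2f1.

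This ratio went with the base composition of the transcripts. Across the 36 members the log2 ratio of control replicate 2 to the mean of the other controls had a Spearman rho of 0.54 and a Pearson r of 0.58 with the GC content of the longest coding transcript. Over 13199 genes tested the values were 0.59 and 0.57. These are descriptions across genes, which share libraries and are not independent replicates. Ccne2, at 36.3% GC the lowest of the members, was the most reduced in that library, and E2f1, at 58.3% GC, was the most raised. For the CKO minus control log2 fold change of the members rho was -0.18 and r was 0.05. Prim1, at 44.3% GC, had a log2 fold change of -1.64 without control replicate 2 (adjusted p = 0.00427 with edgeR). The 34.4, 31.6 and 29.8 CPM of Prim1 in CKO replicates 1 to 3 stood beside summed lens marker levels of 9420, 62.95 and 671.8 CPM, and the part of lens RNA in the result was not tested.

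**Figure D5:**
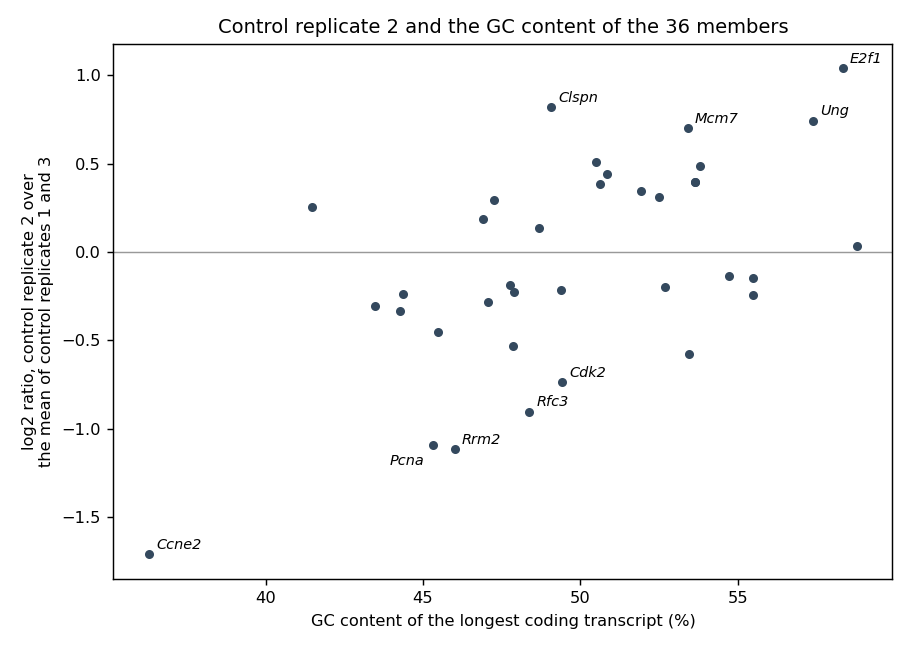
Each point is a member, with the GC content of its longest coding transcript on the x axis (%) and the log2 ratio of control replicate 2 to the mean of control replicates 1 and 3 on the y axis. Members run from Ccne2 at the lower left to E2f1 at the upper right, with a Spearman rho of 0.54 over the 36 members.

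Without control replicate 2 the 35 members other than Prim1 had log2 fold changes from -0.24 (Gins2) to 0.40 (Cdc6), their median SE was 0.10, and none was called by edgeR. Clspn and Pole, at 0.24 and 0.26, and E2f1, at 0.25, were the next highest after Cdc6 in that fit, each short of the threshold.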

How the data were processed

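Retinal RNA was enriched for poly-A, per the labels. The authors deposited whole-number read counts per gene symbol; BWA 0.7.6a-r433, HTSeq 0.5.4p3, DESeq 2.13 and mm9 are named without roles, per the submitters' processing notes. No source used here states the strand setting; overlapping and antisense genes therefore cannot be separated. Of the table's last lines, 3 of a merge conflict and 1 blank line were skipped, and 1 repeated gene was kept once. Counts were fitted in R 4.3.3 with edgeR 4.0.16 (filterByExpr with minimum count 10, TMM, quasi-likelihood F test, genotype only), tested on simulated data beforehand. Alternatives used DESeq2 1.42.0, limma 3.58.1 voom, other scalings and filters, a replicate block, a threshold of 0.01 and leaving out each library. Each SE was derived from the fold change and its F statistic (absolute log2 value over root F). Within-library differences used log2 CPM with prior count 2. Exon length is the merged protein-coding exons of GENCODE M21 basic, and promoters are from RefSeq. The values of each library are given for called members, polymerase alpha-primase, and the 2 members of each role with the largest absolute log2 fold change. They are also given for the 3 other replication genes with the largest change at a mean log2 CPM of at least 1. Other genes were named after their values were seen. Members and lists were chosen with earlier results of these data known. No 2 libraries agreed within sampling noise (lowest chi-square per degree of freedom 5.98).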

Additional observations from a re-analysis of the deposited data

How the results depend on the processing

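Prim1 stayed lower in all 14 alternatives and was called in 12, with log2 fold changes of -1.64 to -1.42 and adjusted p values of 2.82e-14 to 0.0671. Leaving out each library gave -1.64 to -1.42 for Prim1 and 0 to 1 members called lower; the causes were not tested. Over all genes, leaving out each library gave 6 to 72 genes called higher and 10 to 147 lower, an adjusted p of 0.01 gave 8 and 31, and DESeq2's Wald test gave 117 and 209, beside 28 and 103. The members' median was 0.013, against -0.06, with library sizes alone as the scaling. The difference of the MCM ring from GINS ran from -0.118 to 0.0753 over the libraries left out. Without control replicate 2 the sign of the log2 fold change turned in 16 of the 35 members other than Prim1, all uncalled. Among the 18 members followed under every alternative, leaving out each library turned the sign of 9. Their log2 fold changes ran, with the turned value coming without control replicate 2, from -0.19 to 0.0286 in Chaf1b, -0.41 to 0.25 in E2f1, -0.32 to 0.0912 in Mcm7, -0.0878 to 0.24 in Prim2, -0.0921 to 0.41 in Rfc3, -0.12 to 0.34 in Rrm2, -0.26 to 0.00284 in Uhrf1 and -0.32 to 0.12 in Ung, and, with the turned value coming without control replicate 1, from -0.12 to 0.27 in Pole. Same-numbered libraries did not deviate together in every pair (correlations 0.34, 0.11 and -0.00775). In log2 CPM the correlation between same-numbered libraries was 0.977, 0.967 and 0.983 for replicates 1 to 3. The highest correlation between the genotypes was 0.988, for control replicate 3 and CKO replicate 2. With the replicate block 40 genes were higher and 113 lower, and Prim1 was at -1.54 (edgeR adjusted p = 0.00267). With libraries paired by number, the difference of Prim1 from the other subunits was -1.57 and that of the MCM ring from GINS 0.00980. For Prim1 the paired exact permutation test gave p = 0.25, the smallest p that this pairing allows. The paired test therefore could not pass, whatever the size of the difference. The members had at least 18.8 CPM on average, and differences smaller than the intervals given per gene could not be detected.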

Other observations

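The element found upstream of Prim1 was also counted in the promoter windows of all called genes, after the Prim1 window had been read. Of 83 genes called lower in the CKO retina that had a RefSeq window, 63 held it (75.9%), and of 19 called higher 7 did (36.8%), beside 4.42% of the 10704 tested genes with a window. Seen from the element, 63 of 473 tested genes that hold it were called lower (13.3%), and 20 of 10231 without it (0.195%). The median log2 fold change was -0.20 in genes with the element and -0.02 in those without. Most genes with the element were therefore not called, Fen1 and Lig1 among them. No test of this overlap was made, and binding of the factor was not measured here.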
